A study of Mus musculus with 10 samples.

Results

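The endothelin system was followed through 7 genes of the 56750 features in a bulk RNA-seq count table of mouse sarcomas. It comprised 3 ligand genes (Edn1, Edn2 and Edn3), 2 receptor genes (Ednra and Ednrb) and 2 genes of endothelin-converting enzymes (Ece1 and Ece2), and all 7 had a row in the table. The genes were chosen by symbol after the difference between the tumor groups in these data was known. That difference is therefore given as a description, as a log2 fold change with its standard error (SE), and with no test of the 7 genes.

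The study compared sarcomas of the dFLEx CDS mouse, a model of CIC::DUX4 sarcoma, with sarcomas of KP mice. CIC::DUX4 joins the transcriptional repressor CIC to the activating end of DUX4. In dFLEx mice (genotype dFLEx CDS +/-), inverted exons of an HA-tagged fusion at Rosa26 were turned into frame by Cre and FLPE, which were supplied as pCAG-Cre and pCAG-FLPE plasmids electroporated into the gastrocnemius muscle. KP mice were labelled KRASloxP-STOP-loxP-G12D; p53fl/fl, and how their tumors were induced is not given in the sources used here. Both groups were tumors of genetically engineered mice, and the labels gave no age. The plasmid promoter is active in many cell types, so the cell that took up the plasmids is not fixed by the design. The dFLEx group held 3 tumors (170019, 170024 and 170025), each with a pair of duplicate libraries from 1 RNA. The KP group held 2 tumors, 3800 with both duplicates and 3802 with its first duplicate, because the other library labelled 3802 was not analysed here.

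Endothelins are short, doubly disulfide-bridged peptides best known as vasoconstrictors made by endothelial cells. Each is cut from a longer precursor by furin-type convertases to an inactive big endothelin, which endothelin-converting enzymes then trim to the active peptide. The receptors, encoded by Ednra and Ednrb, are G-protein-coupled. The ETA receptor prefers endothelin-1 and endothelin-2, whereas the ETB receptor binds all the endothelins and also clears them from the circulation. In vessels ETA is found on smooth muscle and ETB mainly on endothelium. In the embryo, Edn1 with Ednra patterns the lower jaw and Edn3 with Ednrb guides melanocyte and enteric nerve precursors.

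The ligands are printed first because the largest difference in the system lay in which of them was transcribed. The stretch shown is the coding sequence of the active peptide, 63 bases for 21 residues, which lies in exon 2 of each gene (GENCODE M39 transcripts, GRCm39, plus strand). It spans chr13:42457125-42457187 in Edn1, chr4:120019148-120019210 in Edn2 and chr2:174603542-174603604 in Edn3. In the Edn2 and Edn3 lines, capitals mark codons whose residue differs from that of Edn1, and in the Edn1 line they mark codons whose residue is not shared by all 3 genes.
Edn1: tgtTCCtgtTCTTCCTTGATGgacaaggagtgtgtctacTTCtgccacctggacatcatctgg
Edn2: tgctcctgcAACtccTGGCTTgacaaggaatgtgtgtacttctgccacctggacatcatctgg
Edn3: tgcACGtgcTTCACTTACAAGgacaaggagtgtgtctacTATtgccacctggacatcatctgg
The active peptide of Edn2 shared 18 of 21 residues and 53 of 63 bases with that of Edn1. Edn3 shared 15 of 21 residues with Edn1 and 15 of 21 with Edn2, and the bases identical numbered 50 and 48 of 63. The changed codons lay mostly near the start of the line, and the end of the peptide was the same in all the ligands. No ligand gene was a near copy of another ligand gene over its transcripts.

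Library totals ran from 20503474 to 46302223 counts. Levels below are CPM (counts as a share of the TMM-scaled library total, summed over the duplicates of a tumor), and levels of different genes are compared only as RPKM, which is the same CPM per kilobase of exonic length. The CIC_DUX4 feature of the construct had 105, 202 and 423 CPM in 170019, 170024 and 170025, no counts in 3800 and 6 counts (0.244 CPM) in 3802, so the groups carried the labelled difference. The library of 3802 stood apart. It had counts for 36904 features against 24280 to 31768 in the other libraries, and over 1408 olfactory and vomeronasal receptor genes, which a sarcoma should not use, it had 0.128 RPKM against 0.00246 to 0.0231. In bulk tumor RNA, fewer cells of a type and less RNA per cell cannot be told apart.

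**Figure D1:**
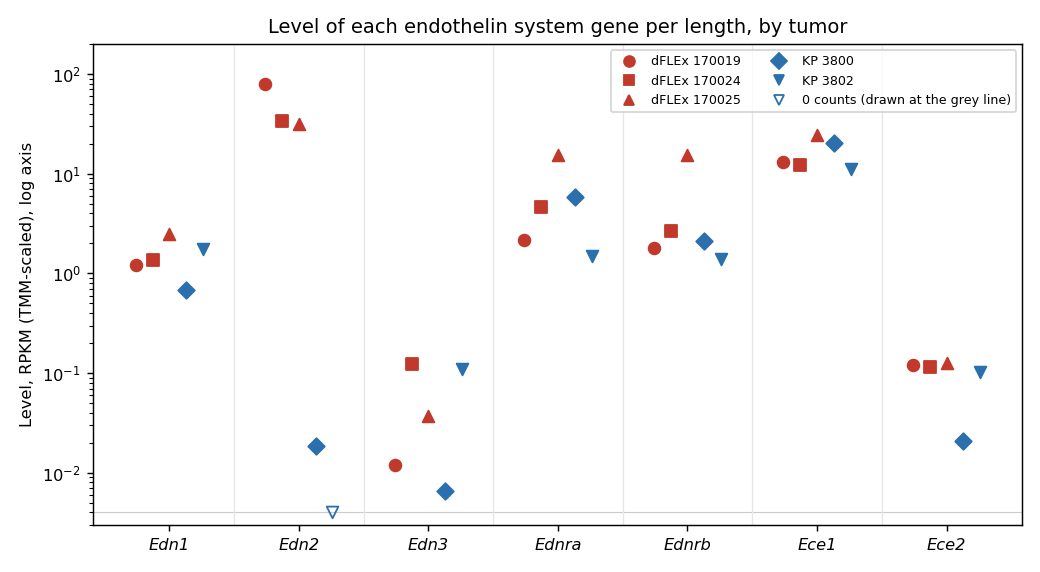
Level of each of the 7 genes in each tumor, in TMM-scaled RPKM on a log axis, with red symbols for the 3 dFLEx tumors and blue symbols for the 2 KP tumors (1 symbol shape per tumor). Edn2 lies at 31.9 to 79.3 RPKM in dFLEx tumors and at or below 0.0184 RPKM in KP tumors, the open symbol marks 0 counts in 3802, and the other genes overlap or nearly touch between groups.

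Edn2 (ENSMUSG00000028635, chr4:120018403-120024557, plus strand) encodes endothelin-2, the ligand best known from ovary, intestine and retina. The duplicates of 170019 held 2422 and 2239 Edn2 counts, those of 170024 held 1469 and 1391, and those of 170025 held 2077 and 1621. The KP libraries held 2 counts and 0 counts in 3800 and 0 counts in 3802. Every dFLEx library thus had at least 1391 counts while the KP libraries together had 2, which may be both mates of a single fragment. On the scaled level, Edn2 stood at 116, 49.6 and 46.6 CPM in 170019, 170024 and 170025, and at 0.0269 and 0 CPM in 3800 and 3802. The dFLEx mean was 70.7 ± 39.2 CPM (SD, n = 3), and the groups did not overlap.

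The Edn2 counts gave a ratio of dFLEx to KP that was large but loosely bounded. Pooled over libraries, 11219 of 190157649 dFLEx counts and 2 of 90624058 KP counts fell on Edn2, a ratio of 2673 with an exact 95% interval of 740 to 22077 that covers counting error only. This interval and that of the KP level treat counts as independent, so they are too narrow where both mates of a fragment were counted. The pooled KP level was 0.0221 CPM, with an exact interval of 0.00267 to 0.0797 CPM. In the KP libraries without counts, a total of 0 allows up to 0.0732 CPM in the second library of 3800 and 0.146 CPM in 3802, if counts are independent. The fitted log2 fold change was 11.72 (SE 1.25), which ranked 3 of 24743 tested genes, and its exact size depends on the prior count because KP was almost empty. Edn2 passed the filter on low counts only through the dFLEx tumors. Of the 7 members, 1 (Edn2) was called at an adjusted p of 0.05 by edgeR, against 45 of 24743 genes in all (0.182%), and nothing is read from that count because the genes were chosen from this contrast. The Edn2 call was lost without 170019, without 170024 and without 3800 and under limma-voom, although the dFLEx tumors were above both KP tumors throughout. Without 3802, the library that stood apart, its log2 fold change was 11.28 and the call held. No exonic base of Edn2 is shared with another feature and no near copy of it was found.

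Edn1 (ENSMUSG00000021367, chr13:42454952-42461466, plus strand) encodes endothelin-1, the main vascular ligand. Its level was 2.59, 2.95 and 5.25 CPM in 170019, 170024 and 170025 and 1.46 and 3.74 CPM in 3800 and 3802. The groups overlapped, with 3802 above 2 of the 3 dFLEx tumors. The mean was 3.60 ± 1.45 CPM in dFLEx (SD, n = 3) and 2.60 ± 1.61 CPM in KP (SD, n = 2), and the log2 fold change was 0.47 (SE 0.76). It was 1.31 without 3802 and 0.072 without 170025, so single tumors set it. Counts ran from 35 to 220 per library, and Edn1 shares 35 exonic bases with Gm47118 and has a near copy, Gm60910.

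Edn3 (ENSMUSG00000027524, chr2:174602412-174625835, plus strand) encodes endothelin-3, the ETB ligand of the neural crest. It was close to the limit of detection, at 0.0498, 0.503 and 0.151 CPM in the dFLEx tumors and 0.0269 and 0.447 CPM in 3800 and 3802. Each group held a tumor with almost none and a tumor near 0.5 CPM, so the groups overlapped, but only through 3802. Edn3 there was at 0.109 RPKM, near the 0.128 RPKM (of the library total) over olfactory and vomeronasal receptor genes. Its level in 3802 thus cannot be told from that background. Edn3 was also the member that repeated worst between duplicates of the same RNA, as the duplicates of 170024 had 25 and 4 counts, those of 170025 had 12 and 0, and those of 170019 and of 3800 each had 2 and 0. Its log2 fold change was 0.03 (SE 1.77), or 3.06 without 3802 and -0.76 without 3800, and no difference was detectable at this depth.

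Which ligand was transcribed differed between the groups more than the other ligands did in level. Per length, Edn2 made up 98.5%, 95.8% and 92.7% of the summed ligand RPKM in 170019, 170024 and 170025. It made up 2.59% in 3800 and 0% in 3802, where Edn1 held 96.5% and 94.1%. The summed ligand level was 80.5, 35.4 and 34.4 RPKM in the dFLEx tumors and 0.709 and 1.86 RPKM in the KP tumors, almost all of the difference being Edn2. Edn2 was the highest of the 7 genes per length in each dFLEx tumor, whereas in KP tumors it was sixth and seventh.

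**Figure D2:**
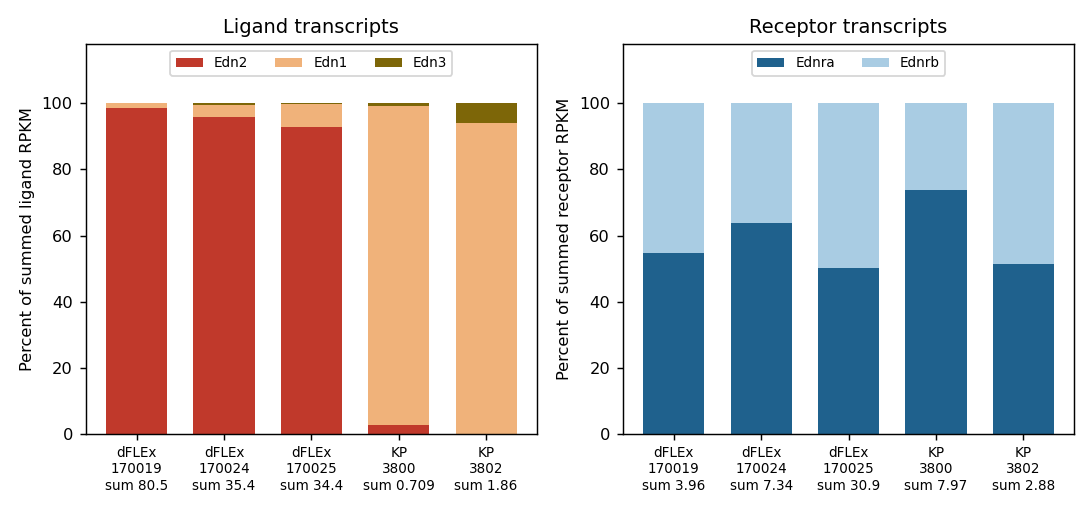
Percent of the summed ligand RPKM (left) and of the summed receptor RPKM (right) held by each gene in each tumor, with the summed RPKM under each bar. Edn2 holds 92.7% to 98.5% of ligand transcripts in dFLEx tumors and Edn1 94.1% to 96.5% in KP tumors, while Ednra holds 50.1% to 73.8% of receptor transcripts with no separation of the groups.

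Ednra (ENSMUSG00000031616, chr8:78389660-78451093, minus strand) encodes the ETA receptor. It stood at 11.8, 25.6 and 85.0 CPM in 170019, 170024 and 170025 and at 32.2 and 8.13 CPM in 3800 and 3802. The KP tumors thus bracketed 2 of the 3 dFLEx tumors, and 170025 was above all others. The mean was 40.8 ± 38.9 CPM in dFLEx (SD, n = 3) and 20.2 ± 17.0 CPM in KP (SD, n = 2). The log2 fold change was 1.02 (SE 0.98), and it was -0.10 without 170025 and 2.51 without 3800. Ednra shares 91 exonic bases with 4933431K23Rik and has a near copy, Gm45714.

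Ednrb (ENSMUSG00000022122, chr14:104052061-104081838, minus strand) encodes the ETB receptor. Its level was 7.66, 11.4 and 65.8 CPM in 170019, 170024 and 170025 and 8.92 and 5.97 CPM in 3800 and 3802. A single dFLEx tumor, 170025, was far above the rest, and 170019 lay between the KP tumors. The mean was 28.3 ± 32.6 CPM in dFLEx (SD, n = 3) and 7.45 ± 2.08 CPM in KP (SD, n = 2). The log2 fold change of 1.92 (SE 1.03) rested on that tumor, since it was 0.35 when 170025 was left out and the dFLEx mean was then 9.52 CPM.

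Both receptor genes were transcribed in every tumor, in a ratio that did not separate the groups. Ednra held 54.6%, 63.7% and 50.1% of the summed receptor RPKM in 170019, 170024 and 170025, against 73.8% and 51.5% in 3800 and 3802. The summed receptor level was 3.96, 7.34 and 30.9 RPKM in dFLEx tumors and 7.97 and 2.88 RPKM in KP tumors. The ligand sum exceeded the receptor sum in each dFLEx tumor and was below it in each KP tumor, as follows from the Edn2 values that guided the choice of genes.

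Ece1 (ENSMUSG00000057530, chr4:137589548-137692540, plus strand) encodes endothelin-converting enzyme 1, the protease that produces the active peptides. It was abundant throughout, at 69.9, 64.5 and 129 CPM in 170019, 170024 and 170025 and 107 and 59.1 CPM in 3800 and 3802. The mean was 87.9 ± 36.0 CPM in dFLEx (SD, n = 3) and 83.0 ± 33.9 CPM in KP (SD, n = 2), a difference much smaller than the spread within either group. The log2 fold change was 0.08 (SE 0.61) with TMM scaling and -0.17 with scaling to library totals, so no direction can be given. Per length Ece1 was the highest of the 7 genes in both KP tumors and the second in each dFLEx tumor.

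Ece2 (ENSMUSG00000022842, chr16:20448578-20465235, plus strand) encodes a related converting enzyme known mainly from nervous tissue. It was low, at 0.622, 0.590 and 0.642 CPM in 170019, 170024 and 170025 and 0.107 and 0.528 CPM in 3800 and 3802, from 3 to 36 counts per library. The groups did not overlap, by a margin of 0.590 against 0.528 CPM at counts of 34 and 13. In 3802 Ece2 was at 0.103 RPKM, near the 0.128 RPKM (of the library total) over olfactory and vomeronasal receptor genes. This RPKM divides by all exonic bases, including those where reads were not counted (below), so it is too low. The comparison with that background therefore cannot decide whether Ece2 in 3802 lay above it. The log2 fold change was 0.98 (SE 1.27), and 2.52 without 3802. Ece2 counts are uncertain because 57.5% of its exonic bases also belong to the readthrough gene Eef1ece2, and reads over 2 genes were not counted. Together with Edn2 it made 2 of 7 members with every dFLEx tumor above both KP tumors, against 3399 of 24743 tested genes (13.7%), a count from which nothing is read for the reason given above.

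**Figure D3:**
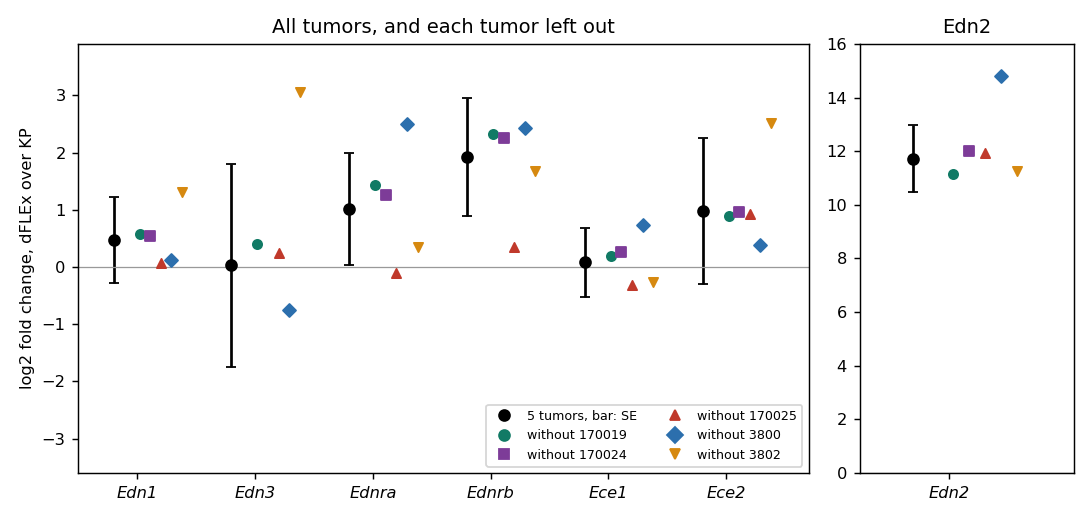
Log2 fold change of dFLEx over KP for each gene in the fit of 5 tumors (black, bars show the SE) and with each tumor left out in turn (coloured symbols, none for Edn3 without 170024, where it did not pass the filter), with Edn2 on its own axis at right. Edn2 stays between 11.16 and 14.81, Ednra is at -0.10 and Ednrb at 0.35 without 170025, and the value for Edn2 without 3800 is set against a KP tumor with 0 counts.

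The dFLEx tumors also differed from each other, a contrast that did not enter the choice of genes. Each tumor's duplicate libraries served as the residual, so the error is that of library preparation and sequencing and not of biological replication. By edgeR's quasi-likelihood test with Benjamini-Hochberg adjustment over 19339 genes, 5 of the 6 members tested differed among the 3 tumors, and 75.7% of all genes did, so the count is near the background. Adjusted p was 1.06e-10 for Ednrb, 4.76e-09 for Edn2, 5.15e-09 for Ednra, 1.84e-06 for Ece1 and 0.0188 for Edn1, and it was 0.941 for Ece2. The call of Edn1 was lost under the DESeq2 likelihood ratio test (adjusted p = 0.115). Edn3 did not pass the filter on low counts in these libraries.

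The members differed in how far they ranged. The highest dFLEx tumor exceeded the lowest by 8.59-fold for Ednrb and by 7.18-fold for Ednra. Among the 13294 tested genes reaching 1 CPM in each dFLEx tumor, whose median ratio was 2.24, only 2.92% ranged more widely than Ednrb and 4.90% more widely than Ednra. Edn2 ranged 2.49-fold, Edn1 2.03-fold and Ece1 2.00-fold, which is near that median. The duplicates of a dFLEx tumor differed by at most 1.18-fold for Ednrb and 1.15-fold for Edn2, but by 1.60-fold for Ednra in 170019.

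**Figure D4:**
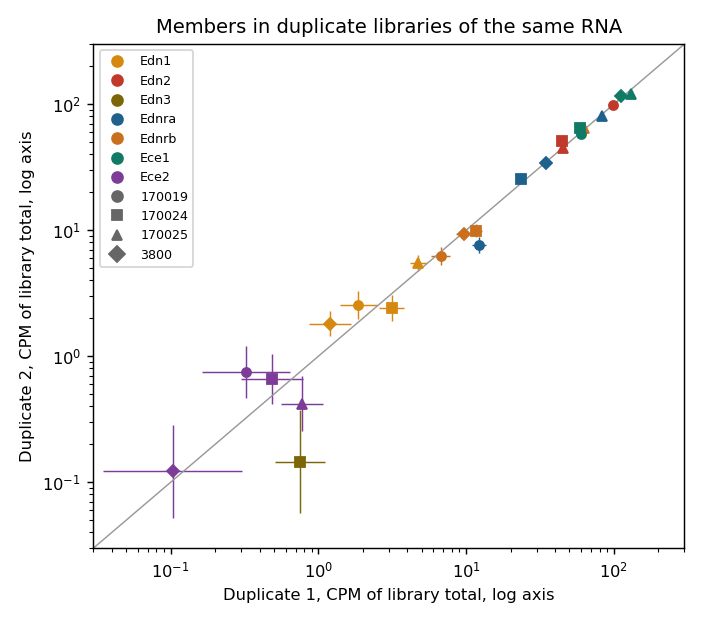
CPM of the library total in the second duplicate against the first, on log axes, for each member and each tumor with both libraries, with bars for the Wilson 95% interval of each library and the diagonal for equality. Pairs with a count of 0 (Edn3 in 3 tumors and Edn2 in 3800) are not drawn, and Ednra in 170019 and Edn3 in 170024 lie farthest from the diagonal for their level.

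The order of the dFLEx tumors was not the same for ligand and receptors. Edn2 was highest in 170019, and the other 2 tumors, at 49.6 and 46.6 CPM, differed by less than the duplicates of 170024. Ednra, Ednrb and Ece1 were highest in 170025, and Ednra and Ednrb were lowest in 170019. The CIC_DUX4 feature followed the order of the receptors, with 105, 202 and 423 CPM, and not that of Edn2. With 3 tumors the relation between transgene and receptor levels was not tested.

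A trend of each tumor with GC content and gene length moved with these differences. After that trend was removed, an alternative chosen after seeing the data, Ednra was 14.8, 27.7 and 64.2 CPM and Ednrb 8.71, 12.2 and 54.2 CPM in 170019, 170024 and 170025, a range of 4.34-fold and 6.22-fold. Ece1 narrowed to 58.6 to 88.4 CPM, with 170019 at 88.4 CPM and 170025 at 87.3 CPM, so 170025 was no longer its highest tumor. Edn2 became 73.0, 37.6 and 60.5 CPM, so that 170025 no longer stood level with 170024, and in KP tumors it was 0.0437 and 0 CPM. The receptors therefore kept 170025 as their highest tumor, while the order of Edn2 and that of Ece1 depended on this step.

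Markers of endothelial cells varied over the same tumors. They are not particular to vessels in this model, because the paper reported dFLEx tumor cells enriched for Pecam1, Erg and Cdh5 in single-nucleus data. The summed level of 8 endothelial markers was 328, 396 and 595 CPM in 170019, 170024 and 170025 and 172 and 199 CPM in 3800 and 3802, and none of the 8 was at 0 in any tumor. Pecam1, the endothelial adhesion molecule, had 85.0, 132 and 206 CPM in the dFLEx tumors and 37.9 and 25.5 CPM in 3800 and 3802 (log2 fold change 2.15, adjusted p = 0.259 by edgeR). Cdh5, VE-cadherin, had 39.5, 90.6 and 180 CPM against 45.5 and 19.6 CPM. Kdr, Tek, Tie1 and Erg rose in the same order over the dFLEx tumors. The tight junction gene Cldn5 ran the other way, with 103, 73.6 and 25.7 CPM in the dFLEx tumors and 18.7 and 109 CPM in 3800 and 3802. Emcn was also highest in 170019, with 44.0, 26.6 and 26.7 CPM in the dFLEx tumors. Of the 8 markers, 0 passed the adjusted threshold in edgeR and 1 had an unadjusted p under 0.05, where the share over all tested genes was 10.6%. All 8 log2 fold changes were above 0 with a median of 1.16, against a median of -0.18 over all tested genes. The endothelial sum ranged 1.81-fold over the dFLEx tumors, less than either receptor, and 1.28-fold once the GC and length trend was removed. It joins markers that ran in opposite directions, and Cdh5 alone ranged more widely than the sum. The part of endothelial cells, or of tumor cells with such markers, in the receptor levels was not tested.

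Markers of vessel wall cells and of connective tissue were also given for the receptors, since smooth muscle and fibroblasts can carry ETA. The 7 pericyte and smooth muscle markers summed to 1071, 683 and 1338 CPM in 170019, 170024 and 170025 and to 709 and 404 CPM in 3800 and 3802. Most of the sum in the dFLEx tumors was Rgs5 (826, 473 and 776 CPM). Rgs5, Cspg4, Acta2 and Kcnj8 were each lowest in 170024. Notch3 (8.73, 20.3 and 103 CPM), Pdgfrb (41.4, 62.0 and 141 CPM) and Myh11 (1.22, 2.81 and 10.1 CPM) had the order of the receptors. The 6 fibroblast markers summed to 2976, 4792 and 9711 CPM against 2775 and 1394 CPM, in the same order over the dFLEx tumors as the receptors. Most of that sum was Col1a1 and Col3a1 (5105 and 4257 CPM in 170025), which had this order, as did Pdgfra. Dcn ran the other way, with 438, 381 and 228 CPM in 170019, 170024 and 170025. Lum was lowest in 170025 (61.5 CPM) and Fap was highest in 170024 (20.9 CPM). After removal of the trend the fibroblast sum ranged 1.30-fold and not 3.26-fold over the dFLEx tumors. None of these 13 markers was called by edgeR and none was at 0. An unadjusted p under 0.05 was found for 3 of them, where the share over all tested genes was 10.6%. Their part in the receptor levels was not tested.

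**Figure D5:**
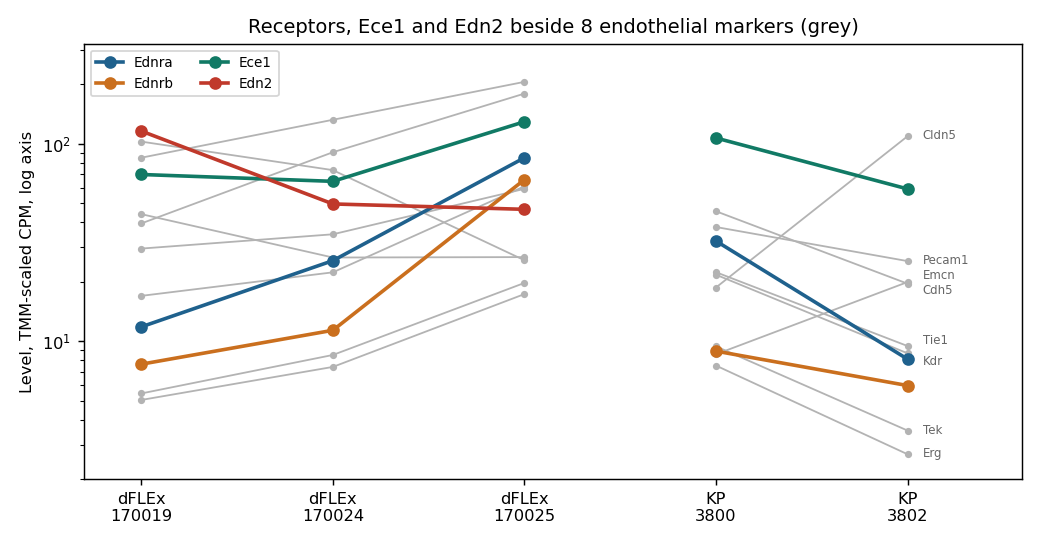
TMM-scaled CPM on a log axis of Ednra, Ednrb, Ece1 and Edn2 (coloured) and of 8 endothelial markers (grey) in each tumor, where lines link the values of a gene within a group and imply no order, and Edn2 is not drawn for KP tumors. Ednra and Ednrb reach 85.0 and 65.8 CPM in 170025, most grey lines are also highest there, and Cldn5 is lower there than in the other dFLEx tumors.

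Marker sums of other cell types are given beside Edn2. The 5 epithelial markers summed to 9.03, 3.76 and 1.11 CPM in 170019, 170024 and 170025 and to 16.4 and 21.5 CPM in 3800 and 3802. The sum was lower in each dFLEx tumor than in either KP tumor, as were Epcam and Cdh1. Most of it was Krt5 and Krt14 in 170019 (2.76 and 3.23 CPM) and Cdh1 in 3800 (12.4 CPM). Krt14 and Esrp1 were lower in 3800 than in each dFLEx tumor. Over the dFLEx tumors the sum had the order of the TMM-scaled Edn2 level, whereas Cdh1 was highest in 170024. That Edn2 order rests on 49.6 and 46.6 CPM in 170024 and 170025 and did not hold once the GC and length trend was removed. Of the 5, 0 were called by edgeR, with 1 at an unadjusted p under 0.05. The 4 mast cell markers summed to 5.68 to 14.7 CPM in dFLEx tumors and to as much as 34.0 CPM in KP tumors. The 4 T cell markers summed to 4.53 to 6.42 CPM in dFLEx tumors and to 7.60 and 36.7 CPM in 3800 and 3802. The 4 Schwann cell markers summed to between 22.8 and 67.7 CPM in the dFLEx group and to 13.9 and 13.5 CPM in 3800 and 3802. The 5 macrophage markers summed to 425 to 590 CPM in dFLEx and 845 and 3394 CPM in KP tumors. Most of the sum in 3802 was C1qa (3099 CPM). Adgre1, Csf1r and C1qa were lower in each dFLEx tumor than in either KP tumor, whereas Cd68 and Mrc1 overlapped between the groups. The sums for mast cells, T cells and macrophages were lower in each dFLEx tumor than in either KP tumor, and highest in 3802. For mast cells and T cells the margin to 3800 was small. The 7 skeletal myocyte markers, which a tumor in muscle can carry over, summed to 6481, 26146 and 8296 CPM in 170019, 170024 and 170025 and to 1182 and 3248 CPM in 3800 and 3802. Each of the 7 was higher in every dFLEx tumor than in both KP tumors, which held for 13.7% of all tested genes. None of the markers of these 5 cell types was called by edgeR, while 7 myocyte, 2 macrophage, 2 T cell and 1 Schwann cell markers had an unadjusted p under 0.05. The share with such a p over all tested genes was 10.6%. Edn2 was highest in 170019, the dFLEx tumor with the lowest myocyte sum and the highest epithelial sum. The part of these cell types in Edn2 was not tested.

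The other genes of the pathway were described from lists chosen with earlier results of these data known. Over 65 genes in 5 lists, 61 were tested and 0 passed an adjusted p of 0.05 in edgeR, while 12 had an unadjusted p under 0.05 (6 higher and 6 lower in dFLEx). That is 19.7% of the 61 tested, where the share over all tested genes was 10.6%. DESeq2 on the tumor sums called 7 of them, but it called 1396 genes in all, against 45 in the main fit. The median log2 fold change of the 61 was -0.38, against -0.18 over all tested genes.

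Of 11 genes for making or degrading the peptides (furin-type convertases, neprilysin and its relatives, and mast cell chymases), 10 passed the filter, of which 3 lay above 0 and 7 below on the log2 fold change. Phex, a membrane peptidase of the neprilysin and Ece1 family known from bone, had 1.02, 0.520 and 0.151 CPM in 170019, 170024 and 170025 and 31.2 and 5.97 CPM in 3800 and 3802. The groups did not overlap, and its log2 fold change of -5.06 (SE 1.05) had an adjusted p of 0.120 by edgeR. Pcsk6, a proprotein convertase, had 3.86, 8.36 and 61.4 CPM against 3.73 and 1.67 CPM, with 170025 far above the rest (log2 fold change 3.18, SE 1.29, adjusted p = 0.428 by edgeR).

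Of 27 genes that couple the receptors to the cell (G proteins, phospholipase C beta, inositol trisphosphate receptors, protein kinase C, arrestins and receptor kinases), each passed the filter, and 10 log2 fold changes were above 0 and 17 below, with a median of -0.38. Plcb4, a phospholipase C, had 2.49, 5.29 and 8.55 CPM in the dFLEx tumors and 73.2 and 6.38 CPM in 3800 and 3802, so 3802 lay within the dFLEx range (log2 fold change -2.87, adjusted p = 0.345 by edgeR). Grk3, a kinase that desensitizes G-protein-coupled receptors, averaged 36.1 ± 35.4 CPM in dFLEx tumors (SD, n = 3) against 5.90 and 6.62 CPM in 3800 and 3802 (2.53, adjusted p = 0.374 by edgeR). The groups did not overlap for Grk3, and 170025 was again the highest.

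The 9 genes known to regulate Edn1 transcription were all tested, with 2 log2 fold changes above 0 and 7 below. Gata2, an endothelial and blood cell GATA factor, had 3.23, 4.02 and 3.00 CPM in the dFLEx tumors and 31.3 and 8.66 CPM in 3800 and 3802 (log2 fold change -2.55, adjusted p = 0.214 by edgeR). Fos, a subunit of AP-1, had 34.3, 72.6 and 106 CPM against 32.6 and 10.0 CPM (1.74, adjusted p = 0.510 by edgeR). Of 8 factors downstream of Ednra in jaw patterning, 6 were tested, with 3 above 0 and 3 below. Dlx5 had 2.19, 2.32 and 2.14 CPM in the dFLEx tumors and 0 and 0.122 CPM in 3800 and 3802, and the groups did not overlap (log2 fold change 5.45, SE 1.61, adjusted p = 0.251 by edgeR, its size depending on the prior count). Gsc had 1.29, 1.35 and 0.0882 CPM against 0.0269 and 0.163 CPM, with 170025 inside the KP range.

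Of 10 genes of the neural crest lineages that need Ednrb, 9 were tested, with 4 log2 fold changes above 0 and 5 below. Ret, the GDNF receptor of enteric nerve precursors, had 45.0, 95.7 and 262 CPM in 170019, 170024 and 170025 and 7.72 and 0.650 CPM in 3800 and 3802. The groups did not overlap, and the log2 fold change was 4.99 (SE 1.34) with an adjusted p of 0.206 by edgeR. Mlana, a melanocyte gene, had 0.199, 0.503 and 0.932 CPM against 0 and 0.203 CPM, with 170019 just under 3802. The pigment cell genes as a whole were near the limit of detection, as Tyr had 0 CPM in each dFLEx tumor and was not tested.

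The genes whose pattern over the 5 tumors was most like that of each member were found by the root mean square difference of centred log2 CPM, over the 15264 tested genes that averaged 1 CPM or more. For Edn2 these were Elf3, an epithelial ETS factor, at 0.45, Nkpd1 at 0.74 and Hcrtr1, an orexin receptor, at 0.77. Elf3 had 218, 207 and 161 CPM in 170019, 170024 and 170025 and 0.215 and 0.122 CPM in 3800 and 3802, and Hcrtr1 had 24.7, 16.2 and 15.1 CPM against 0 in both KP tumors. The nearest gene was farther from Edn2 than the nearest gene was from any other member. Nothing is read from that, because the distance is not scaled for the size of a gene's differences, which was largest for Edn2. The pattern matched for Edn2 is also mostly the difference between the groups that guided the choice of genes.

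For Ednra the nearest genes were R3hdm2 (0.08), Septin8 (0.10) and Rhobtb1 (0.11). For Ednrb they were Pde4d (0.14), Prkg1 (0.17) and Kcnn3 (0.20), of which Pde4d had 6.19, 11.5 and 51.3 CPM in the dFLEx tumors and 7.46 and 5.49 CPM in 3800 and 3802. Ece1 was closest to Hif1a (0.05), Pum2 (0.05) and Cand1 (0.07), and Edn1 to Cracd (0.13), C6 (0.14) and Osr2 (0.16). The low genes had neighbours that share their few counts' pattern, with Gm4841, Apol10b and Vwa7 for Edn3 (0.09 to 0.38) and Lpl, Slc10a6 and Ttc21a for Ece2 (0.10 to 0.15). These distances are descriptions over 5 tumors that share depth and composition.

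Short motifs were searched in the promoter windows of the members, 300 bases around a start site, because CIC binds an octamer and Edn1 is a known target of AP-1 and of hypoxia-inducible factor. The RefSeq promoter table (GRCm38.p6) held 10 windows for the 7 genes, of which 4 were for Ece1. The CIC octamers TGAATGAA, TGAATGGA, TCAATGAA and TCAATGGA, on either strand, occurred in 0 of the 10 windows and in 3.84% of all 32851 windows. The AP-1 motif TGANTCA occurred in 0 of the 10 and in 7.81% of all. The hypoxia response core ACGTG occurred in the windows of Edn1 (at position 22 from the start site) and Ece2 (at -92) and in 1 window of Ece1, and in 19.6% of all windows. The Edn2 window held none of these letters, which says nothing about binding elsewhere at the gene.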

How the data were processed

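Each tumor's RNA gave a pair of sequencing libraries, prepared after removal of ribosomal RNA and read from both ends. The authors trimmed reads with Trimmomatic (version 0.39), aligned them with STAR (version 2.7.10a) to GRCm39 with the construct added, and deposited raw counts per gene from featureCounts (Subread 2.0.3). Per the file headers, both mates had to align, strand was ignored, and mates were counted singly, so a fragment can give 2 counts. Reads over several genes or with several alignments were not counted. Of 10 labelled libraries, 9 had a column. Symbols were joined by identifier from GENCODE M39 for 56017 of 56750 features.

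The members and gene lists were chosen with earlier results of these data known. Counts were summed per tumor, filtered with filterByExpr, scaled by TMM and tested with glmQLFit and glmQLFTest of edgeR (version 4.0.16, R version 4.3.3), adjusted by Benjamini-Hochberg over all tested genes at 0.05. Nothing in the labels says that tumors came from separate mice, so p-values measure the spread between these tumors. The fits were tested on simulated data. Scaling moves the median log2 fold change of all genes from -0.18 (TMM) to -0.26 (DESeq2 size factors) and -0.47 (library totals). Alternatives used DESeq2 (version 1.42.0) and limma (version 3.58.1), and intervals used SciPy (version 1.17.1). Because reads are not separate molecules, intervals and count limits hold counting error alone. They also treat the mates of a fragment as independent counts, so they are too narrow. The limit of a count of 0 was taken as 3 counts.

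Named genes were, of each pathway list, any gene with an adjusted p under 0.05 and otherwise the 2 with the largest absolute log2 fold change, and for each member the 3 most alike genes (prior count 2, mean of at least 1 CPM). Of the marker lists only sums, counts and single endothelial, pericyte and smooth muscle, fibroblast, epithelial and macrophage genes are given. Apart from Pecam1 and Cdh5, these single genes were named after their values were seen. Near copies were transcripts of other genes matching at least 150 bases at 95% identity. Amino acid sequences were not used here.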

Additional observations from a re-analysis of the deposited data

How the results depend on the processing

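Over 101 member values recomputed under alternatives, 91 moved by less than the pooled SD between tumors and 10 moved by more. The sign differed from that of the main fit in 13 of them, all for Edn3, Ece1 or Ednra. Edn2, the only called member, was far from 0 and kept its sign. For Edn2 the log2 fold change was 10.81 with the first library of each tumor, 10.37 with a prior count of 2 and 10.92 with the GC and length trend removed (chosen after seeing the data). With tumors left out in turn it ran from 11.16 to 14.81, the highest value standing against a tumor with 0 counts, so it is no bound. The same range was 0.072 to 1.31 for Edn1, -0.76 to 3.06 for Edn3 (4 tumors left out, as it did not pass the filter without 170024), -0.10 to 2.51 for Ednra, 0.35 to 2.43 for Ednrb, -0.31 to 0.74 for Ece1 and 0.39 to 2.52 for Ece2. Edn1, Edn3 and Ece2 moved most without 3802, Ednra and Ece1 without 3800, and Ednrb without 170025.

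The count of all genes called was 45 and rose to 880 with no filter, 1396 with DESeq2 on tumor sums, 3344 with libraries as independent samples, 543 with limma-voom and 190 with the trend removed. It ran from 0 (without 170019, and without 170024) to 414 (without 3802) with tumors left out, a design that leaves KP with 1 tumor when 3800 or 3802 is dropped and then assumes that tumor to vary like the others. Other pathway genes called went from 0 to 5 with no filter (Plcb4, Phex, Dlx5, Ret and Pcsk6), 7 with DESeq2, 18 with libraries as independent samples and 2 with limma-voom (Phex and Ret), and ran from 0 to 2 with tumors left out. The cause was not tested. The count of members called between dFLEx tumors was 5, also with no filter and with library totals, and 4 with the DESeq2 likelihood ratio test, where Edn1 was lost.

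With the duplicate number as a replicate block, 2476 genes and 9 other pathway genes were called, and the log2 fold changes of the 6 members that passed the filter there moved by less than the SD between tumors (Edn3 did not pass). The numbers do not pair the libraries, since deviations of first duplicates correlated between tumors at -0.0386 to 0.0198, and in this fit duplicates count as replicates. The low counts of Edn3, Ece2 and KP Edn2 limit what can be said of them.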
